A study of Mus musculus with 4 samples.

Results

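The genes of the cytosolic ribosome were followed through a capture of phosphorylated ribosomes from mouse hypothalamus. They were chosen by name, as every array gene called Rpl or Rps with a number, together with Rplp0, Rplp1, Rplp2 and Rpsa. Rps6 and names ending in PS were left out. The rule found 61 genes with 80 probes among 17916 genes and 25697 probes, of which 35 belong to the large subunit and 26 to the small subunit, with paralogue genes counted under the subunit of their parent. No measured value entered the choice. Names were updated to current mouse symbols, so that RPS3A of the array is Rps3a1 here.

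The animals of every group were C57Bl/6J mice aged 12 weeks, kept in 12 h of light and 12 h of dark and killed near circadian time 6. Salt mice were injected with 325 uL of 2 M NaCl and control mice with PBS, the vehicle, and both had no water for the 2 h until they were killed. RNA was taken from the hypothalamus after immunoprecipitation (IP) with an antibody that binds the phosphorylated form of the ribosomal protein S6, and from the same homogenate without IP (input). There were 2 salt and 2 control samples, each with 1 IP and 1 input Illumina array. Whether each sample came from 1 mouse or from a pool is not stated, so the p-values measure only the spread between these samples, which may be technical.

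A cytosolic ribosome holds 1 copy of most of its proteins in a large subunit, which forms peptide bonds, or a small subunit, which reads the mRNA. The mRNAs of these proteins often begin with a run of pyrimidines, the 5′ terminal oligopyrimidine tract, through which growth signalling by mTOR controls their translation. Phosphorylation of S6 rises in active neurons, and the antibody enriches the mRNAs held by ribosomes of cells with more phosphorylated S6. A low IP/input of a gene therefore means a smaller share of its array signal in the captured RNA than in the total RNA, relative to other probes.

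The promoters of 44 of the 55 measured member genes were found in RefSeq's annotation of GRCm38.p6. The following 8 are shown because they belong to genes with low IP/input (Rps27l, Rplp0, Rpl14, Rps10), to genes near 0 with a second, dimmer probe (Rpl38, Rps24), and to a paralogue and its parent that lay on opposite sides of 0 (Rpl22l1, Rpl22). Each holds 80 bases, 5′ to 3′, of which the last 30 follow the annotated start, and capitals mark the longest run of C and T letters where it has at least 8 letters.
Rps27l, chr9:66946036-66946115, plus strand: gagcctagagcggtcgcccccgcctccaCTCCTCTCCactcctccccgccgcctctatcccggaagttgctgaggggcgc
Rplp0, chr5:115559417-115559496, plus strand: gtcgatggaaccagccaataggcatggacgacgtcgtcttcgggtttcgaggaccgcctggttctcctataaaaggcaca
Rpl14, chr9:120571467-120571546, plus strand: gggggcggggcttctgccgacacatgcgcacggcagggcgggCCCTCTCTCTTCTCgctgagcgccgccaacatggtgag
Rps10, chr17:27635215-27635294, minus strand: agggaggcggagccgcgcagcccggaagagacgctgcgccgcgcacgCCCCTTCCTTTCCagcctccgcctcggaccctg
Rpl38, chr11:114668530-114668609, plus strand: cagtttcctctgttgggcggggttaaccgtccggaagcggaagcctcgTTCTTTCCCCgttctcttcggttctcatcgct
Rps24, chr14:24490628-24490707, plus strand: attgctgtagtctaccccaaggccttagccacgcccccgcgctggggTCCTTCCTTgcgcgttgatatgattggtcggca
Rpl22l1, chr3:28805458-28805537, plus strand: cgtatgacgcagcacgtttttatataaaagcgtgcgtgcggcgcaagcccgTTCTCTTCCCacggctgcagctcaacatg
Rpl22, chr4:152325676-152325755, plus strand: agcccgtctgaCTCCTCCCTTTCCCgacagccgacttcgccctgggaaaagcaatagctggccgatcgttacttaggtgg

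Annotated starts can differ from the start a cell uses, and these motifs were chosen after the matches had been seen. In the first definition, a run of at least 10 C or T letters on the sense strand between 30 bases before and 50 bases after the start, 27 of 44 member promoters held one (61.4%), against 13.9% of all 27025 promoters. The median log2 IP/input of genes with such a run was -0.33 in salt and -0.31 in control samples, and of the 17 genes without one -0.29 in salt and -0.37 in control samples. A second definition, tried after that result was known, took runs of at least 8 letters between 50 bases before and 30 bases after the start. It found 25 of 44 member promoters (56.8%), against 30.2% of all promoters, and gave medians of -0.47 in salt and -0.38 in control samples with a run, and -0.22 in salt and -0.24 in control samples without one. The gap between genes with and without a run thus depended on the definition, and nothing is read from it. The letters CCGGAAG, on either strand and anywhere from 250 bases before to 50 bases after the start, stood in 16 of 44 member promoters (36.4%), against 9.12% of all promoters. TATAAA, searched the same way, stood in 5 of 44 (11.4%), against 14.2% of all promoters. CCGGAAG read on the other strand begins with C and T letters, so it can overlap the end of a run.

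Of the 61 genes, 55 could be tested, 31 of the large and 24 of the small subunit, and all 55 were detected on all 8 arrays. Where a gene had more than 1 probe, the brightest stands for it. The other 6 did not pass the filter, which asked that at least 2 arrays give a detection p below 0.01. Rplp2, a second acidic stalk protein, lay between 82.4 and 106.4 units of raw intensity over the arrays. Rpl6 lay between 99.5 and 134.7, and Rpsa, a small subunit protein also known as the laminin receptor, between 100.4 and 163.9 over its 2 probes. The paralogues Rpl39l, Rpl3l and Rps4l lay between 80.3 and 165.6 units. Rpl5 and Rpl11, which carry the 5S RNA, and Rpl10, Rpl7 and Rps27 have no probe under those names here.

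Median raw intensity over all probes was 143.3 to 161.9 per array, and 12259 to 13808 of the 25697 probes were detected, which limits how precisely dim genes are measured. Of the hypothalamic markers 7 of 8 were measured, without Otp, and of the neuronal markers 5 of 6, without Rbfox3. Over the measured members, the median raw intensity was 1732.1 and 1664.1 in the salt IP, against 2287.1 and 2349 in the salt input. It was 2008.5 and 1411.6 in the control IP, against 2494 and 2141.2 in the control input. The IP lay below the input of its own sample in all 4 samples.

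Some of the measured ribosomal protein genes were lower in the captured RNA than in the input, in salt and in control samples, and none was higher. In salt samples 17 of 55 members were lower in the IP (limma, Benjamini-Hochberg adjusted p under 0.05), 12 of the large and 5 of the small subunit, and 0 were higher. Over all probes tested 18.1% were lower and 18.8% were higher. In control samples 19 of 55 were lower, 12 large and 7 small, and 0 were higher, where 20.1% of all probes were lower and 19.9% higher. The members' share was 30.9% in salt and 34.5% in control samples. Their median log2 IP/input was -0.33 in salt samples, against -0.02 for all probes, and -0.33 in control samples, against -0.03 for all probes. No p is given for the list as a whole. The within-group test was run on simulated control samples in which nearly all probes had equal IP and input. It recovered 9 of 100 genes changed by a log2 of 1 and 80 of 100 changed by 2. Far more probes were called in the real data, which makes the adjustment less strict, so these rates do not carry over to the members. In salt samples Rpl39 at -0.54 was called (limma adjusted p = 0.0363), while Rpl13a at -0.33 was not (limma adjusted p = 0.13). Changes near the members' median can thus go uncalled.

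The counts depended on how the arrays were scaled, while the members' median stayed below 0 under each setting tried. Scaling each array to its median in place of quantile normalization gave 51 lower members in salt and 48 in control samples, where 32.1% of all probes were lower in salt and 31.5% in control samples. That scaling also moved the median of all probes to -0.23 in both groups, against member medians of -0.89 in salt and -0.83 in control samples. The IP/input ratios of the authors' deposited table, with neither background correction nor scaling, gave 39 in salt and 37 in control samples, where 18% of all probes were lower in salt and 21.1% in control samples. Without the filter on dim probes 13 members were lower in salt and 18 in control samples, where 8.51% of all probes were lower in salt and 9.95% in control samples. Rpl3l, which the filter removed, was then called higher in control samples. Leaving out 1 sample changed the control count most. It was 5 without control sample 1 and 2 without control sample 2, where the remaining sample is assumed to vary like the other group. The share of all probes called lower was then 4.25% without control sample 1, against 9.09% of members, and 2.49% without control sample 2, against 3.64% of members. In salt samples the members' median was -0.41 without salt sample 1 and -0.28 without salt sample 2. Rplp0, Rpl14, Rpl22l1, Rps27a and Rps27l kept the control call without control sample 1, and Rpl4 and Rps27l kept it without control sample 2.

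Lower values were shared by most genes and samples. The members' median log2 IP/input was -0.28 and -0.41 in the salt samples, and -0.21 and -0.48 in the control samples. In all 4 samples 40 of the 55 genes lay below 0, 25 large and 15 small, against 34.2% of all probes. Only Rpl22, a large subunit protein, lay above 0 in all 4. In the ratios of the authors' deposited table the members' median was 0.774 and 0.711 in the salt samples, and 0.782 and 0.671 in the control samples. The same table's median over all tested probes was 1.02 and 1.04 in the salt samples, and 1.00 and 0.994 in the control samples.

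**Figure D1:**
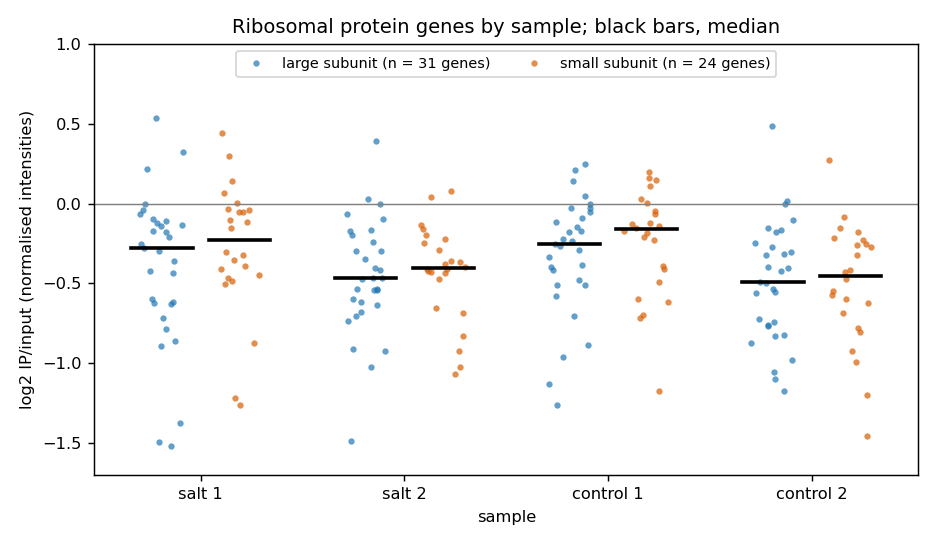
Log2 IP/input of each measured gene (points, 31 large in blue and 24 small subunit genes in orange) in the 2 salt and 2 control samples, with the median as a black bar. The medians of both subunits lie below 0 in every sample, and the 2 control samples lie farther apart than the subunits do.

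Large and small subunit genes had nearly the same values. In salt samples the median log2 IP/input was -0.33 for large and -0.32 for small subunit genes, and in control samples -0.33 for large and -0.31 for small subunit genes. Large subunit genes had medians of -0.28 and -0.46 in the salt samples, and -0.25 and -0.49 in the control samples. Small subunit genes had medians of -0.23 and -0.40 in the salt samples, and -0.16 and -0.45 in the control samples. The large minus small difference was -0.05 and -0.06 in the salt samples, and -0.09 and -0.04 in the control samples. Replicates of a group differed by more than this in both subunits, and the sign in salt turned to 0.01 when dim probes were kept. The difference between the subunits was not tested, because genes are not replicates.

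The same genes led in both groups. Of the 17 genes called in salt and the 19 called in control samples, 16 were called in both, 94.1% of the salt list and 84.2% of the control list. The overlap over all probes was not computed, and both tests shared 1 estimate of the spread. Between a salt and a control sample, log2 IP/input correlated at 0.80 to 0.85 over all probes and at 0.62 to 0.87 over the members. The overlap is thus not read as particular to the members. Rpl21 was called in salt samples alone, a call that was lost without salt sample 1, and Rpl29 and Rps25 were among those called in control samples alone. None of these was called for a difference between the groups.

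The acidic stalk of the large subunit recruits the GTPase factors of translation, and Rplp0 is its base. Rplp0 had raw intensities of 183 and 155.9 in the salt IP, against 341.2 and 249 in the salt input. It had 212.3 and 173.9 in the control IP, against 308.4 and 270.2 in the control input. Every IP value was below its own input. Its log2 IP/input was -1.50 ± 0.16 (SE, n = 2, limma adjusted p = 0.00174) in salt samples, a 2.84-fold lower level in the IP after background correction and normalization. In control samples it was -1.07 (limma adjusted p = 0.00243). A dimmer Rplp0 probe gave -0.76 in salt and -0.91 in control samples. The raw IP/input of the brightest probe was 0.536 and 0.626 in the salt samples, and 0.688 and 0.644 in the control samples. Its raw IP intensities, 155.9 to 212.3, lay near the median over all probes of 143.3 to 161.9 per array.

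Rplp1, which binds Rplp0, had log2 IP/input of 0.54 and -0.54 in the salt samples, and 0.14 and 0.02 in the control samples. Its salt samples lay on opposite sides of 0, and it was not called. The input level of Rplp1 differed by 1.09 on the log2 scale between the 2 salt samples, the widest input gap of any member.

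Rps27a makes a small subunit protein fused to ubiquitin. Its log2 IP/input was -1.26 and -1.07 in the salt samples, and -0.72 and -1.20 in the control samples. The fitted value was -1.16 in salt samples (limma adjusted p = 0.00348) and -0.96 in control samples (limma adjusted p = 0.00555). Its raw IP intensities, 157.1 to 200.9, lay near the median over all probes of 143.3 to 161.9 per array. The raw IP/input was 0.643 and 0.721 in the salt samples, and 0.782 and 0.658 in the control samples. A second Rps27a probe was detected on 0 arrays. Rps27l, a paralogue of Rps27, was at -1.22 and -0.69 in the salt samples, and at -1.17 and -1.45 in the control samples. The fitted value of -1.31 in control samples was the lowest of any member there (limma adjusted p = 0.00219), and in salt samples it was -0.95 (limma adjusted p = 0.00766).

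Among core large subunit genes, Rpl4 was at -1.38 and -0.71 in the salt samples, and at -1.27 and -0.98 in the control samples. Rpl14 was at -0.86 and -0.93 in the salt samples, and at -0.89 and -1.06 in the control samples. Its raw IP/input was 0.736 and 0.738 in the salt samples, and 0.717 and 0.687 in the control samples. The raw IP intensities of Rpl14, 170.5 to 203.9, lay near the median over all probes of 143.3 to 161.9 per array. All 4 samples of both genes were below 0, and both were called in each group. Rpl27a was also called in each group, but its salt samples lay at -1.50 and -0.41. Its input level differed by 1.07 on the log2 scale between the salt samples, and its salt call was lost without salt sample 1, and its call in each group was lost when dim probes were kept.

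Rps2 and Rps3 stand at the mRNA entry of the small subunit, and Rpl24 at the subunit interface. With quantile normalization none was called in either group by its brightest probe. Rps2 was at 0.44 and -0.41 in the salt samples, and at -0.13 and -0.26 in the control samples. Rps3 was at -0.12 and -0.22 in the salt samples, and at -0.05 and -0.27 in the control samples. A dimmer Rps3 probe was at -0.32 in salt and -0.51 in control samples, and was called lower in control samples (limma adjusted p = 0.0399). Rpl24 was at -0.12 and -0.46 in the salt samples, and at -0.09 and -0.39 in the control samples. Under median scaling Rps3 was called lower at -0.79 in salt and -0.70 in control samples (limma adjusted p = 0.00582 in salt, 0.00996 in control). Rpl24 was called there at -0.84 in salt and -0.71 in control samples, and Rps2 at -0.67 in control samples. With the deposited ratios Rps3 was called in both groups and Rpl24 in salt samples.

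The paralogue Rpl22l1 and its parent Rpl22 lay on opposite sides of 0. Rpl22l1 had log2 IP/input of -0.62 and -0.60 in the salt samples, and -0.71 and -1.10 in the control samples, and was called in both groups. Its salt call was lost without salt sample 1. Rpl22 had 0.21 and 0.39 in the salt samples, and 0.21 and 0.48 in the control samples, with limma adjusted p of 0.172 in salt and 0.121 in control samples. Rpl22l1 minus Rpl22 was -0.83 and -0.99 in the salt samples, and -0.92 and -1.59 in the control samples. The sign was the same in 4 of 4 samples, but 4 signs cannot give an exact two-sided permutation p below 0.125. Rpl7l1, a paralogue of Rpl7, was at -0.26 in salt and -0.22 in control samples and was not called by its brightest probe. A dimmer Rpl7l1 probe was at -0.37 in salt and -0.66 in control samples, and was called lower in control samples (limma adjusted p = 0.0151).

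Rps6, whose protein the antibody binds and which is no member here, was at -0.72 in salt samples (limma adjusted p = 0.0181) and at -0.85 in control samples (limma adjusted p = 0.00917).

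**Figure D2:**
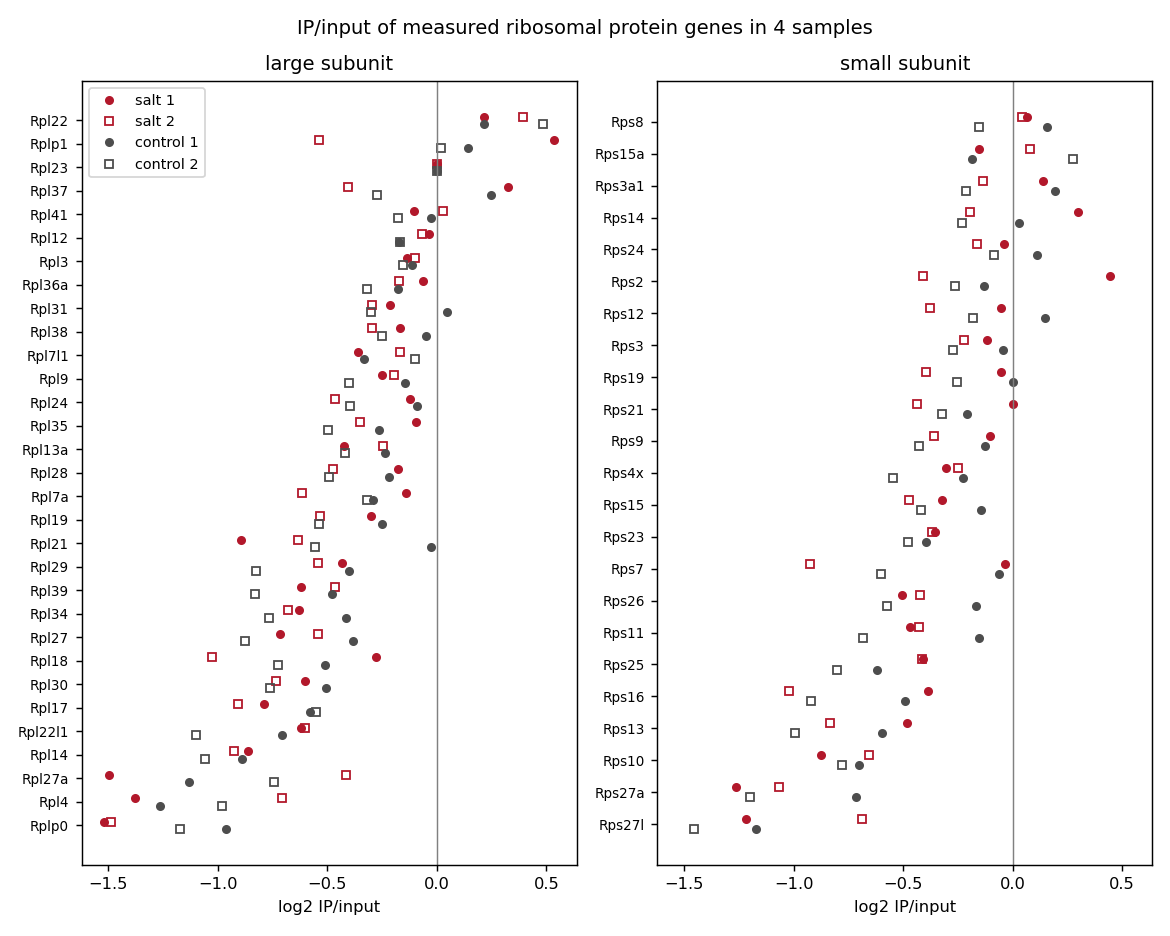
Log2 IP/input of measured large (left) and small (right) subunit genes, 1 symbol per sample (salt red, control grey), sorted by their mean. Rplp0 and Rps27l lie at the low end, and Rpl22 is the only gene drawn with all 4 samples above 0.

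With quantile normalization, low IP/input went with dim probes among the members. Of the 17 genes whose probe had a mean log2 level under 10, 12 were lower in salt and 12 in control samples, with medians of -0.76 in salt and -0.71 in control samples. Of the 12 genes from 10 to 11, 4 were lower in salt and 6 in control samples. Of the 26 genes at 11 or more, 1 was lower in each group, with medians of -0.19 in salt and -0.16 in control samples. The counts did not hold under other scalings, a comparison made after the data were seen. Of these 26 genes, 25 were lower in salt and 24 in control samples under median scaling, and 16 in each group with the deposited ratios. The medians under 10 and at 11 or more were then closer, at -1.01 and -0.86 in salt and -0.96 and -0.78 in control samples under median scaling, and at -0.55 and -0.39 in salt and -0.52 and -0.40 in control samples with the deposited ratios. With quantile normalization, the 2840 tested probes of highest level, from 9.69 up, held 40 members. Of these, 7 were lower in salt and 9 in control samples, against 15.8% of those probes in salt and 19.1% in control samples. The next 2840 probes, from 8.50 up, held 9 members. In salt 5 were lower and in control samples 6, against 21.6% of those probes in salt and 23% in control samples. Such shares were not computed under the other scalings. Over the 55 genes, level and log2 IP/input had a Pearson correlation of 0.72 in salt and 0.62 in control samples. Over all 14199 probes it was -0.04 in salt and -0.05 in control samples. These points share arrays and the level enters both axes, so the correlations are descriptions. A probe's level is not a measure of how abundant its mRNA is.

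**Figure D3:**
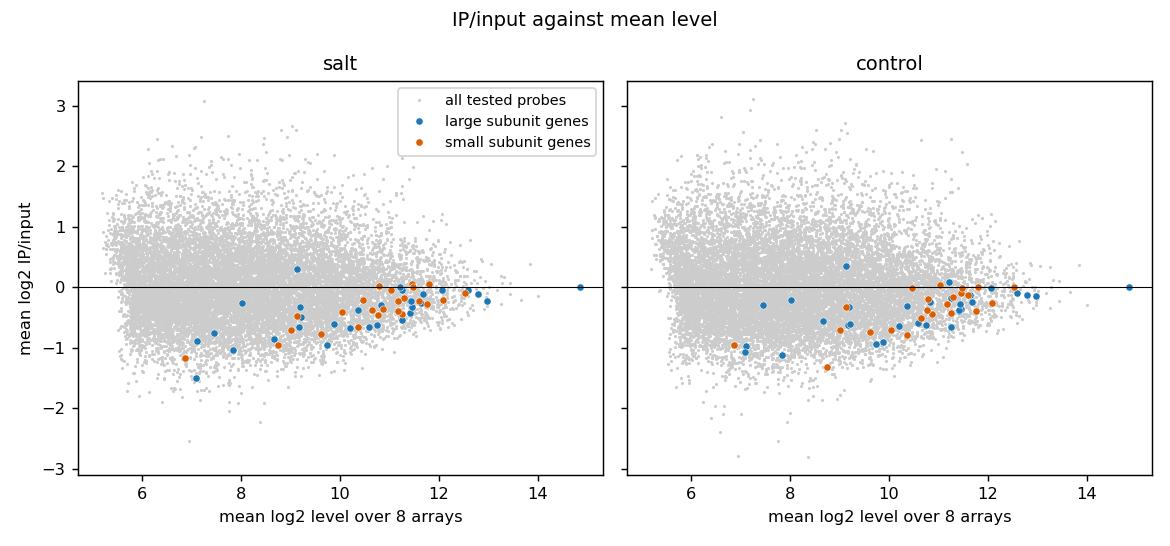
Mean log2 IP/input against mean log2 level over 8 arrays in salt (left) and control (right), for all 14199 tested probes (grey) and the member genes (coloured). Members under a level of 10 spread down past -1, while those above 11 lie close to 0.

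Paired probes of a gene showed this order where their levels lay far apart. For 12 genes with several tested probes, 14 pairs of the brightest and a dimmer probe could be set side by side. The dimmer probe had the lower IP/input in 12 pairs in salt and 10 pairs in control samples. It was lower in 7 of 7 pairs whose levels were more than 2 apart on the log2 scale, in both groups. In 3 of these 7 the brighter probe is the same Rpl23 probe, which normalization held at 0, and the other 4 pairs come from 4 genes. In the 7 closer pairs the dimmer probe was lower in 5 in salt and 3 in control samples. The brightest Rpl38 probe was at -0.23 in salt and -0.15 in control samples, and its dimmer probe at -0.93 in salt and -0.86 in control samples. The brightest Rps24 probe was at -0.10 in salt and 0.01 in control samples, and its dimmer probe at -0.70 in salt and -0.54 in control samples. What the dimmer probes measure was not tested. Over all 69 member probes, 26 (37.7%) were called lower in salt and 29 (42%) in control samples, and 0 higher, where 18.1% of all probes were lower in salt and 20.1% in control samples.

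The brightest Rpl23 probe was the brightest of all probes on all 8 arrays, so quantile normalization set it to 1 value and its IP/input to 0 in every sample. Its raw intensity was 29141.4 and 26983.4 in the salt IP, against 33183.3 and 33233.5 in the salt input. It was 29336.5 and 22730.9 in the control IP, against 33798.1 and 29658 in the control input. The raw IP was below the input in all 4 samples.

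**Figure D4:**
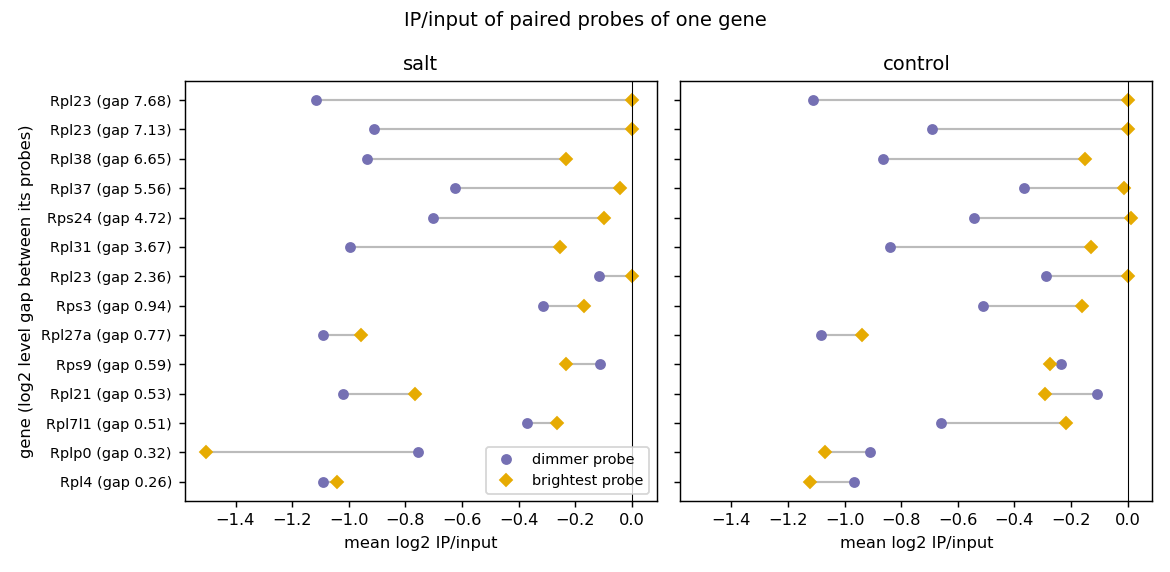
Mean log2 IP/input of the brightest (yellow) and a dimmer (purple) probe of the same gene, in salt (left) and control (right), sorted by the gap in log2 level between them. In the 7 pairs with a gap over 2 the dimmer probe lies to the left in both groups, and 3 of these pairs share the Rpl23 probe that was held at 0.

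No member differed between salt and control samples beyond the spread between samples. For IP/input, IP level and input level, 0 of 55 members were called in either direction by limma at an adjusted p under 0.05. Over all 14199 probes 0% were called for IP/input, in the IP 0.134% rose and 0% fell, and in the input 0.0141% rose and 0% fell. At an unadjusted p under 0.05, 0 members passed for IP/input, 1 for the IP and 0 for the input. On simulated data the IP/input comparison recovered 0 of 100 genes changed by a log2 of 1 and 0 of 100 changed by 2, so the lack of calls there does not show that nothing changed. The simulation drew the noise of each array independently, so these rates may not carry over to the members. The IP comparison recovered 51 of 100 changed by a log2 of 1 and 93 of 100 changed by 2.

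The members' median difference of salt minus control was -0.01 for IP/input, 0.03 for the IP and 0.03 for the input. For IP/input it was -0.02 for large and 0.01 for small subunit genes. In the IP it was 0.02 for large and 0.05 for small subunit genes, and in the input 0.03 for each. Both salt samples lay above both control samples in 5 members for IP/input, 7 for the IP and 10 for the input, where 13.7%, 15.2% and 12.6% of all probes did. Both lay below in 3 members for IP/input, 3 for the IP and 5 for the input, where 13.1%, 15.6% and 12.3% of all probes did.

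Rpl22l1 had the smallest unadjusted p of any member in the IP. Its log2 IP level was 9.73 and 9.71 in the salt samples, and 9.51 and 9.07 in the control samples. The groups did not overlap, and the difference was 0.43 ± 0.18 (SE, n = 2 each, limma adjusted p = 0.871). Rplp0 was lower in the IP by -0.39 with 6.52 and 5.99 in the salt samples and 6.75 and 6.54 in the control samples, and did not pass. Rps14 differed by 0.30 in the IP and did not pass. For IP/input the smallest p-values belonged to Rplp0 at -0.44, Rpl21 at -0.47 and Rps27l at 0.36, and for the input to Rpl21 at 0.29, Rpl36a at -0.18 and Rps27l at -0.19. None passed.

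**Figure D5:**
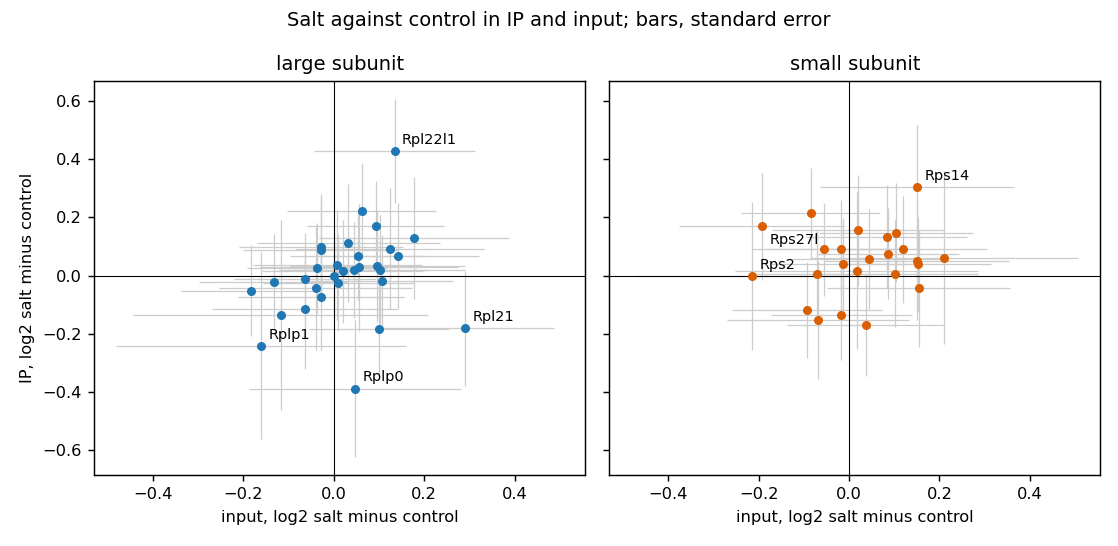
Log2 difference of salt minus control in the IP (vertical) against the input (horizontal) for the large (left) and small (right) subunit genes, with standard errors of the fit as grey bars. Most points lie within 0.2 of 0 on both axes, with Rpl22l1 at 0.43 in the IP.

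The control IP arrays differed from each other across the members. In control IP 1, 41 of 55 genes lay above their own mean over the 4 IP arrays, with a median of 0.11, and in control IP 2, 46 of 55 lay below it, with a median of -0.14. In the salt IP arrays the medians were 0.03 and -0.0025. Over all probes the median was 0.0041 in control IP 1 and 0.0018 in control IP 2. The median SD between replicates over the members was 0.08 in the salt IP and 0.22 in the control IP, against 0.14 and 0.15 over all probes.

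Other translation genes were counted the same way, where 18.1% of all probes were lower and 18.8% higher in salt, and 20.1% lower and 19.9% higher in control samples. Of 72 measured mitochondrial ribosomal protein genes, which serve the ribosome of the mitochondrion, 44 were lower and 1 higher in salt samples, and 42 lower and 1 higher in control samples. Their median log2 IP/input was -0.64 in salt and -0.57 in control samples. Of 55 measured translation factor genes, named Eef or Eif, 11 were lower and 6 higher in salt samples, and 16 lower and 8 higher in control samples, with medians of -0.17 in salt and -0.14 in control samples. Differences between these lists were not tested.

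Markers of cell types also moved between IP and input. Over all probes 18.1% were lower and 18.8% higher in salt, and 20.1% lower and 19.9% higher in control samples. Of 7 measured hypothalamic markers, 4 were lower in each group and 2 were higher in salt samples, with medians of -0.59 in salt and -1.20 in control samples. Of 5 measured neuronal markers, 1 was lower in each group, with medians of -0.44 in salt and -0.43 in control samples. Of 6 astrocyte markers, 0 were lower in either group and 1 was higher in salt samples, with medians of -0.02 in salt and -0.14 in control samples. Of 2 measured endothelial markers, 1 was higher in salt samples. Of 6 oligodendrocyte markers, 1 was lower in salt and 2 in control samples. Of 3 measured ependymal markers, 2 were lower in the IP in salt and 1 in control samples, and of 2 measured blood markers 2 were higher in each group. Of 3 measured microglial markers, 2 were lower in salt and 1 in control samples. Of 2 measured choroid plexus markers, 1 was lower in each group, with medians of -0.51 in salt and -0.20 in control samples. The log2 of the summed ependymal levels was 7.62 and 8.31 in the salt IP, against 9.36 and 9.57 in the salt input, and 8.06 and 7.498 in the control IP, against 9.39 and 9.32 in the control input. Their part in the members' values was not tested.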

How the data were processed

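Per the file headers, the authors deposited intensities on a linear scale and, beside each, a detection p-value. The authors also deposited each sample's IP/input ratio, which equals the quotient of the deposited intensities. The submitters' processing notes name GenomeStudio. Per the labels' protocols, RNA was amplified (Ovation V2) and carried a biotin label. Background was corrected and arrays quantile-normalized with limma's neqc steps (limma 3.58.1, R 4.3.3), with negative controls inferred from the detection p-values and an offset of 16. Of 25697 probes, 14199 were tested, those for which 2 or more arrays gave a detection p below 0.01.

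Per sample, log2 IP minus log2 input (2 residual degrees of freedom) and the log2 levels of all 8 arrays (4 residual degrees of freedom) were fitted with lmFit and eBayes. Tests were two-sided and adjusted by Benjamini-Hochberg over 14199 probes with a threshold of 0.05. The procedure was tested on simulated data. Over the array as a whole, same-numbered samples did not vary together (r = 0.01 for IP/input, 0.14 for the IP and -0.23 for the input), so the numbers were not used as pairs. The members' IP/input did go with the number. Their median was -0.28 in salt sample 1 and -0.21 in control sample 1, against -0.41 in salt sample 2 and -0.48 in control sample 2. With the number as a block, 16 members were lower in salt and 19 in control samples, against 17.1% and 19% of all probes.

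The named genes are up to 6 called genes each way per comparison by size with all samples on 1 side, filled to 3 by unadjusted p where fewer were called, and in every comparison the stalk, entry, interface, ubiquitin fusion and paralogue genes and their parents. Other genes in the text (Rpl23, Rpl38, Rps24, Rps10, Rpl29, Rps25, Rpl6, Rpl39l and the like) were chosen after their values were seen. The members, lists and motifs were chosen with earlier results of these data known. Alternatives covered background correction, scaling, filter, probe summary, empirical Bayes settings, deposited ratios, a replicate block and left-out samples. A gene that counts among the members is not reported here by name and is not drawn in the plot of IP/input by gene.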

Additional observations from a re-analysis of the deposited data

How the results depend on the processing

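With 2 samples a group the precision is limited, and values of dim probes rest on signals near background. The lower calls were more numerous under other scalings. Salt and control gave 51 and 48 under median scaling and 39 and 37 with the deposited ratios. With IP and input normalized apart they gave 27 and 27, against 15.1% and 16.7% of all probes. Without background correction they gave 26 and 26, against 20.3% and 21.8% of all probes. The lower calls were fewer without a filter on dim probes, 13 in salt and 18 in control samples, against 8.51% and 9.95% of all probes. Rpl3l was then called higher in control samples. The median of members was -0.89 in salt and -0.83 in control samples under median scaling and -0.47 in salt samples with IP and input normalized apart, and their median in the input of salt against control was 0.14 under median scaling. The large minus small difference in salt was -0.0305 under median scaling, 0.0145 without a filter on dim probes, -0.12 with probes averaged per gene (-0.10 in control) and -0.00192 with the deposited ratios.

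Leaving out 1 sample gave 14 to 15 lower members in salt and 2 to 24 in control samples. In control samples the share of all probes called lower rose and fell with the member count. That range is thus not read as particular to the members. In salt samples the share of all probes varied while the member count hardly did. With 1 sample left out, the large minus small difference ran from -0.0628 to -0.0155 in salt, -0.0908 to -0.0229 in control, and -0.0643 to 0.11 for salt against control. Signs turned for genes close to 0. Under median scaling Rps2 in salt was at -0.51 and Rplp1 in control at -0.46, and for salt against control Rps2 was at 0.0667 in the IP, Rpl24 at 0.0812 and Rpl22 at 0.0187 in the input. With IP and input normalized apart Rps2 in salt was at -0.10 and Rplp1 in control at -0.10, and with the deposited ratios Rps2 in salt was at -0.0893, Rplp1 in control at -0.10 and Rpl22 for salt against control at 0.000802. With probes averaged per gene, salt against control was 0.0932 for Rps3 and 0.12 for Rpl7l1 in IP/input, and -0.000861 for Rps3 and -0.10 for Rpl7l1 in the input.

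Over left-out samples, IP/input of salt against control ran from -0.21 to 0.64 for Rps2, -0.18 to 0.0909 for Rpl22, -0.16 to 0.068 for Rpl7l1, -0.12 to 0.10 for Rps3, -0.62 to 0.46 for Rplp1, -0.22 to 0.12 for Rpl24 and -0.45 to 0.0338 for Rps27a. IP/input in salt ran from -0.41 to 0.44 for Rps2 and -0.54 to 0.54 for Rplp1. The IP level of salt against control ran from -0.18 to 0.18 for Rps2, -0.18 to 0.033 for Rpl22, -0.27 to 0.0389 for Rpl24, -0.15 to 0.41 for Rpl7l1 and -0.35 to 0.0132 for Rps27a. The input level ran from -0.70 to 0.38 for Rplp1, -0.32 to 0.20 for Rpl24, -0.61 to 0.19 for Rps2, -0.23 to 0.32 for Rplp0, -0.0206 to 0.0938 for Rps27a, -0.22 to 0.17 for Rpl22 and -0.00973 to 0.18 for Rps3. The causes of these changes were not tested.

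With the replicate number as a block, 16 members were lower in salt and 19 in control samples, against 17.1% and 19% of all probes. In that fit 0 members were called for salt against control in IP/input, the IP or the input. With crossed numbers, an alternative chosen after seeing the data, 0 members were called in the input.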
